A study of Mus musculus with 2 samples.

Results

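Genes of the hedgehog pathway were read from a pair of microarrays of cultured mouse rib chondrocytes, the cells that make cartilage. The 10 members were Ptch1, Smo, Gli1, Gli2, Gli3, Hhip, Sufu, Gas1, Cdon and Boc. All probe sets whose single platform symbol was one of these names were taken, which gave 27 of the 45101 probe sets on the array. The genes were chosen by name and function, though with earlier results of these data known, and are 10 of 18193 genes that the array names.

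One array held RNA from a wild-type culture and the other from a culture lacking miR-140, a microRNA abundant in cartilage. Both cultures came from mice aged 5 days, with a strain label naming C57BL/6 and CBA, and no treatment was named for either. The arrays were made to search for mRNA targets of this microRNA. The number of mice behind each culture, their sex, and the part of the locus removed are not given in the sources used here. With 1 array per group there is no spread between cultures, so every difference below is a log2 value, knockout minus wild type, describes these arrays and carries no test.

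Hedgehog proteins are secreted signals, and Indian hedgehog from maturing chondrocytes paces proliferation and maturation in the growth plate, partly by way of PTHrP. Without a ligand, the receptor Ptch1 holds back Smo, a membrane protein of the primary cilium. Ligand binding, helped by the co-receptors Gas1, Cdon and Boc, lifts that block and lets Smo act on the GLI transcription factors, which Sufu restrains. Ptch1, Hhip and Gli1 are themselves switched on by the pathway in many tissues and are widely read as its output.

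The product removed from the knockout is shown here by its 3p strand, with the seed (bases 2 to 8) in capitals, as listed by RefSeq on GRCm38.p6 at chr8:107551288-107551308, plus strand.
mmu-miR-140-3p: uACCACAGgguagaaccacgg
The array has no probe set for a mature microRNA strand, so this sequence was not measured, and no target sites in the members were searched.

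The sequence upstream of the start is shown for Ptch1 and Smo because these were the members past 1.5-fold, both lower in the knockout array. The RefSeq promoter table (GRCm38.p6) held a window of 300 bases for 8 of the 10 members, all but Gli1 and Boc. The 250 bases before the start are printed, on the strand of the gene, with CG dinucleotides in capitals. The Ptch1 stretch is chr13:63565736-63565985 on the minus strand, and its start lies 7725 bases inside the outermost end of the gene, so it belongs to an inner start. The Smo stretch is chr6:29735247-29735496 on the plus strand.
Ptch1: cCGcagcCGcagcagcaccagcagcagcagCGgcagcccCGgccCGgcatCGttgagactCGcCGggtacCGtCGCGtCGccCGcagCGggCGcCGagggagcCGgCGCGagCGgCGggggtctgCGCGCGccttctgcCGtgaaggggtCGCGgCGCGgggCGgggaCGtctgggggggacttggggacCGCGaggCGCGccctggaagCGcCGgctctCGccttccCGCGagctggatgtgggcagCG
Smo: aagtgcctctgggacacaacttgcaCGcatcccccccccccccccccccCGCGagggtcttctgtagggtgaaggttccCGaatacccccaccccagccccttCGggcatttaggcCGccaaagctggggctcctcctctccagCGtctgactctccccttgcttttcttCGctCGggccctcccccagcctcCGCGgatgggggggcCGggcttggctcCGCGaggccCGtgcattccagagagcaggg
The full window of Ptch1 held 47 CG dinucleotides and that of Smo 17, against a median of 7 over all 32851 windows in the table, with quartiles of 3 and 20. The member windows thus ran from CG-rich to CG-poor, the lowest being Cdon with 3, whose start lies 30548 bases inside the gene.

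The windows were also searched on both strands for the GLI binding motif GACCACCCA. It was found in none of the 8 member windows and in 83 of all windows (0.253%). Its core ACCACCC, which lies within the full motif, was found in 1 member window, that of Gli2, and in 4.61% of all windows. The Gli2 stretch is printed with the core in capitals, as it reads on the strand of the gene (the reverse complement of the core). It is chr1:119053788-119053854, minus strand, and the core begins 205 bases before the start.
Gli2: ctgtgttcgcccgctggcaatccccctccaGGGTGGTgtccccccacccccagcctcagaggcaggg
A match is a description of the letters. Windows of this length leave out distal elements, and nothing about GLI binding follows from a window without the motif.

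A gene was compared where the higher of its log2 signals reached a floor of 7, a set cut below which signal was treated as too low to compare. This left 9897 genes, with a median difference of -0.05 and a central 95% between -0.69 and 0.47. The 7 members that passed were Ptch1, Smo, Gas1, Cdon, Boc, Sufu and Gli3. Gli1, Gli2 and Hhip stayed under the floor on both arrays. None of the 7 members differed by 2-fold, which 0.475% of all genes compared did upward and 1.22% downward. At 1.5-fold, 2 of the 7 read lower, Ptch1 and Smo, against 3.56% of all genes, and none read higher, against 1.56%. Of the 7 members, 4 were lower by any amount, beside 59.2% of all genes, and their median was -0.14. Counted by probe set, 11 of the 27 passed the floor and 7 of the 11 were lower, beside 54.9% of all named probe sets above the floor. Of the 4 members with at least 2 such probe sets, Smo, Gas1 and Boc had a common sign and Gli3 did not, where 52.2% of all such genes had one.

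**Figure D1:**
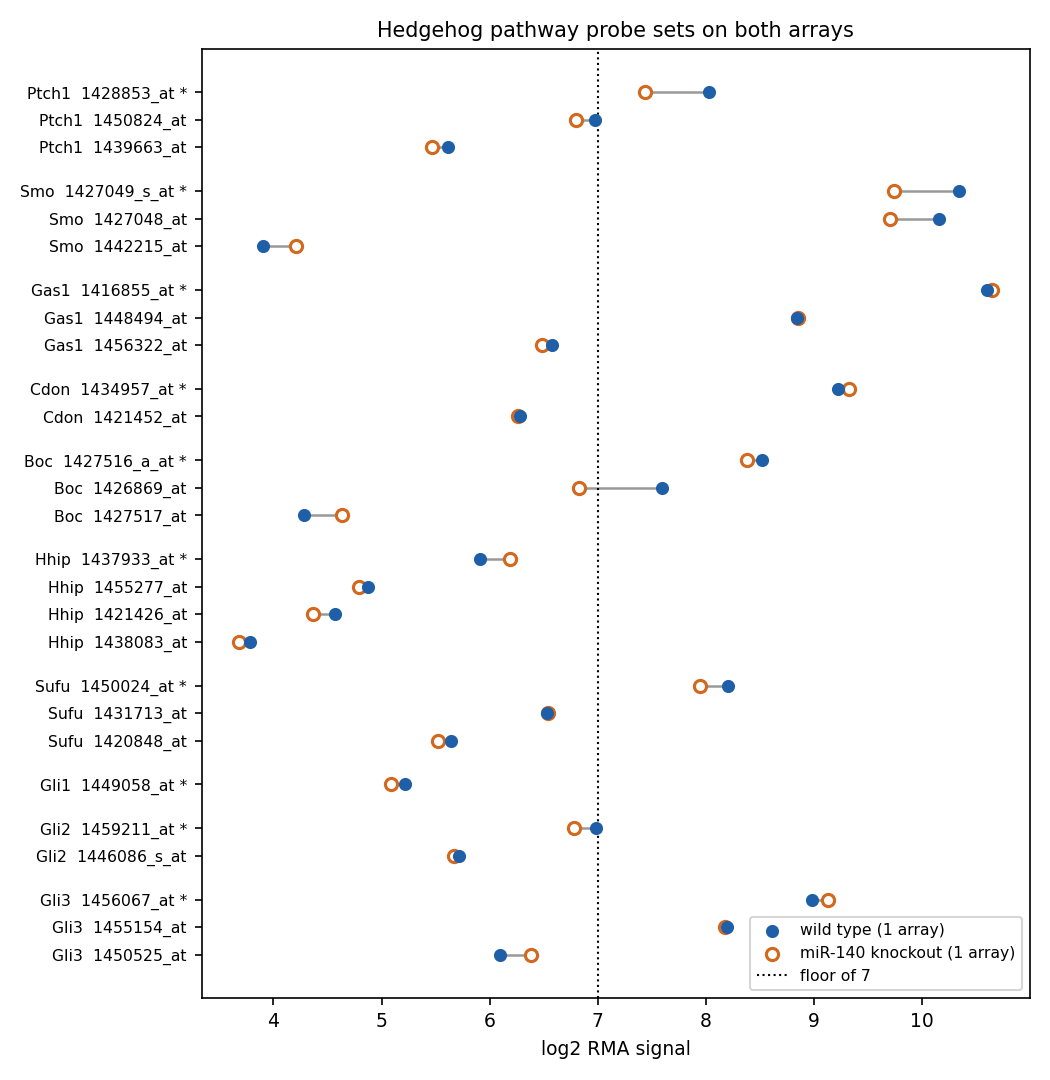
Log2 RMA signal (horizontal axis) of all 27 member probe sets in the wild-type array (filled blue) and the miR-140 knockout array (open orange), 1 array each, with the floor of 7 dotted and an asterisk on the probe set read for the gene. The widest gaps with a signal above the floor are those of the second Boc probe set (-0.77), the first of Smo (-0.60) and the first of Ptch1 (-0.59), all lower in the knockout, while the Gli1, Gli2 and Hhip pairs all lie left of the floor.

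Other differences between the arrays are given before the members are read. The chondrocyte markers read lower in the knockout array: all 16 of the 17 listed that passed the floor were lower, with a median of -2.05. At least 2-fold lower were 14 of these markers, beside 1.22% of all genes compared. Among them, Acan (aggrecan) differed by -4.03, Sox9 (a chondrocyte transcription factor) by -1.18, and Col2a1 (the main cartilage collagen) read 13.98 and 11.98. Their summed linear signal was 77991 on the wild-type array and 20554 on the knockout array. Among fibroblast and perichondrium markers, 10 of 14 read higher, where 59.2% of all genes compared were lower. Their median was 0.21 and their summed signal 52769 and 56979. Col3a1 differed by 1.38 and Col1a1 by 0.28, but Postn by -1.26. Sex-linked transcripts also differed, with Xist at 3.59 and Eif2s3y, Uty and Kdm5d of the Y chromosome at -4.68, -4.30 and -3.62, so genotype and the sex of the mice cannot be told apart. Whether the hedgehog differences follow the mix of cells or the sex of the mice was not tested, and in bulk RNA fewer cells of a type and less RNA per cell cannot be told apart.

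Markers of further cell types were mostly dim. Of 8 skeletal muscle markers, 1 passed the floor, Des at 0.14, and of 6 endothelial markers 1, Kdr at -0.06. Of the 8 macrophage and leukocyte markers 4 passed, with a median of 0.00, and Ptprc, the pan-leukocyte marker, stayed under the floor. The smooth muscle and pericyte list had 4 of 7 above the floor, 2 higher and 2 lower. Their median was -0.19, and they ran from -0.46 (Acta2) to 0.04. Of 10 osteoblast markers 3 passed, 1 higher (Col1a1 at 0.28) and 2 lower, among them Tnfrsf11b at -1.35. Sp7, the osteoblast transcription factor, did not pass. The hypertrophic chondrocyte list had 2 of 8 genes above the floor, which went opposite ways. Col10a1, the collagen of hypertrophic chondrocytes, read 7.41 and 5.69 (-1.72), so its knockout signal lay under the floor, while Mmp13, a collagenase, read 12.43 and 13.16 (0.73).

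Smo and Ptch1, the core pair that receives the signal, both read about 1.5-fold lower in the knockout array. For Ptch1, the receptor that binds hedgehog and represses Smo, the probe set used read 8.03 on the wild-type array and 7.44 on the knockout array. The difference of -0.59 is 1.504-fold lower and only just reaches the 1.5-fold line. Of the 9897 genes compared, 3.53% stood at or below this difference, and of the 2920 genes with a mean signal within 0.5 of that of Ptch1, 3.05% did. The other Ptch1 probe sets stayed under the floor in both arrays and were also lower in the knockout, 6.97 and 6.80 for one (-0.17) and 5.61 and 5.46 for the other (-0.15). All 3 Ptch1 probe sets thus pointed the same way, and 1 of them carried the size.

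Smo, the membrane protein that passes the signal inward, read 10.34 on the wild-type array and 9.74 on the knockout array. This is a difference of -0.60, or 1.52-fold lower, and 3.36% of all genes compared stood at or below it. Of 1530 genes of like signal, 3.40% did. A further probe set read 10.15 and 9.70, a difference of -0.45 (1.37-fold lower). The annotation lists the same transcript record for both, so they are not independent of each other. The third Smo probe set read 3.90 and 4.21, far under the floor, and when all 3 were averaged the Smo difference shrank to -0.25. The bright probe sets agreed in direction, and the dim one did not.

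The 1.5-fold calls of Ptch1 and Smo depended on the scale. Both lay just past the line, and centring all genes on a median of 0 brought Ptch1 to -0.54 and Smo to -0.55, which left no member past 1.5-fold. With probe sets of 1 transcript only, Smo stood at -0.45, short of 1.5-fold, and Ptch1 stayed at -0.59. The direction of both was lower in every setting tried in which the gene passed the floor. For Ptch1, all of these settings read the same probe set.

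The co-receptors Gas1, Cdon and Boc, which bind hedgehog at the cell surface and help it reach Ptch1, did not share the size of these differences. Gas1, a membrane-anchored growth arrest protein, read 10.60 on the wild-type array and 10.65 on the knockout array (0.05). A further Gas1 probe set above the floor read 8.84 and 8.86 (0.02), and a dim one 6.58 and 6.49 (-0.09). These are among the closest pairs of values in the family, and the sign of Gas1 turned to -0.01 when its probe sets were averaged. Cdon, an immunoglobulin-family receptor, read 9.22 and 9.33 (0.10), and its dim probe set 6.28 and 6.26 (-0.03).

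Boc, the paralogue of Cdon, gave different answers by probe set. The brightest read 8.52 on the wild-type array and 8.38 on the knockout array, which is -0.14. The other above the floor read 7.60 and 6.82, a gap of -0.77 (1.71-fold lower), the widest of any member probe set, but its knockout signal lay under the floor. The third, at 4.28 and 4.63 (0.35), was far under the floor. Both usable Boc probe sets were lower, by amounts 0.63 apart. Across the 3838 genes with at least 2 probe sets above the floor, the median range between probe sets of a gene was 0.25 and the 90th percentile was 0.64, so Boc lies near that percentile. The brightest probe set has a suffix that marks several transcripts of 1 gene, and which transcripts each probe set reads was not analysed here.

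The inhibitors were Sufu, which holds GLI proteins in the cytoplasm, and Hhip, a membrane protein that captures hedgehog. Sufu read 8.21 on the wild-type array and 7.95 on the knockout array, which is -0.26, and 15.7% of all genes compared stood at or below it. Its other probe sets were under the floor, at 6.53 and 6.54 (0.01) and at 5.64 and 5.52 (-0.12). No Hhip probe set reached the floor. The brightest read 5.91 and 6.19 (0.28), and the other 3 read 4.87 and 4.79 (-0.09), 4.57 and 4.37 (-0.20) and 3.79 and 3.68 (-0.10). The Hhip probe sets did not share a sign, and all of them lay where signal was treated as too low to compare.

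Among the GLI transcription factors, Gli3 alone was above the floor. Gli3, which acts mainly as a repressor when the pathway is silent, read 8.99 on the wild-type array and 9.13 on the knockout array (0.14), and 17.7% of the 2440 genes of like signal stood at or above this. A further probe set read 8.19 and 8.18 (-0.02), and a dim one 6.09 and 6.38 (0.29). Gli2, the main activator, read 6.98 and 6.78 (-0.20), just under the floor, and 5.72 and 5.67 (-0.05) by a second probe set of the same transcript record. Gli1, an activator that is also a target of the pathway, has a single probe set here, which read 5.22 and 5.08 (-0.13). For Gli1 and Gli2 these values are under the floor, and no direction is given.

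**Figure D2:**
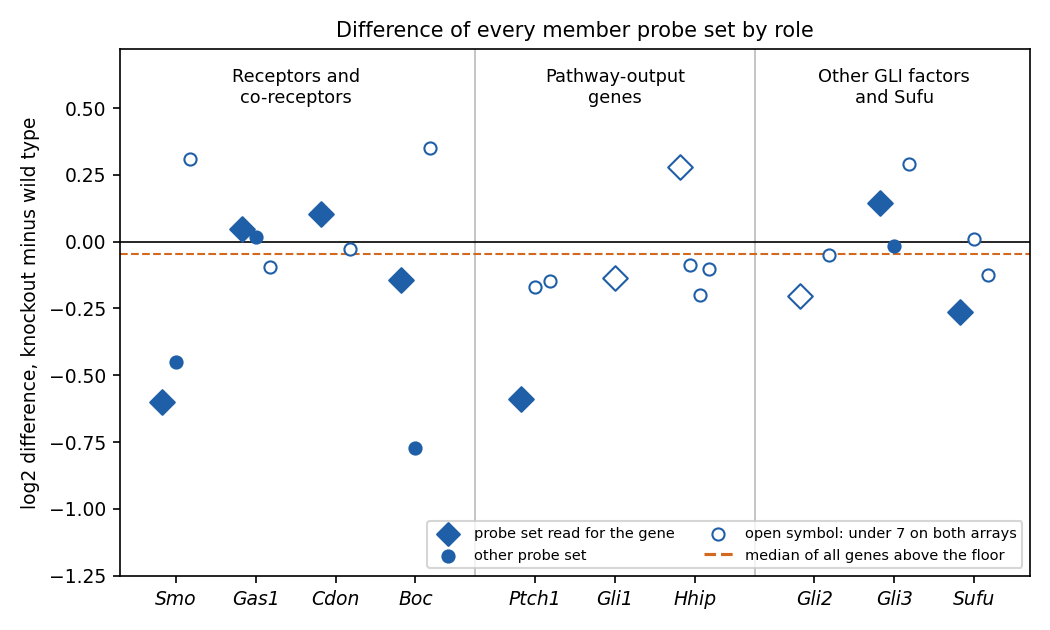
Log2 difference, knockout minus wild type (vertical axis), of each member probe set, grouped as receptors and co-receptors (Smo, Gas1, Cdon, Boc), pathway-output genes (Ptch1, Gli1, Hhip) and the remaining members (Gli2, Gli3, Sufu). Diamonds mark the probe set read for the gene, open symbols lie under the floor of 7 on both arrays, and the dashed line is the median of all genes compared (-0.05). Filled symbols run from -0.77 to 0.10 among receptors and co-receptors, and Ptch1 (-0.59) is the 1 filled symbol among the outputs.

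Receptors and co-receptors were set beside the pathway-output genes. Ptch1 is both a receptor and an output, and was counted with the outputs alone. The 4 receptors and co-receptors (Smo, Gas1, Cdon and Boc) were all above the floor, 2 higher and 2 lower, with a median of -0.05 and a range of -0.60 to 0.10. The median of all genes was also -0.05. The receptor median moved to -0.20 with probe sets of 1 transcript and to -0.21 with the mean of probe sets above the floor, where all genes stood at -0.05 and -0.03. Of the 3 output genes (Ptch1, Gli1 and Hhip), Ptch1 passed the floor, so the output value above the floor is that of Ptch1, -0.59. With all 3 counted whatever their signal, the outputs had a median of -0.13 and a range of -0.59 to 0.28, which overlaps that of the receptors. The arrays therefore gave 1 usable output value. Whether the roles differ could not be judged from these genes and was not tested.

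**Figure D3:**
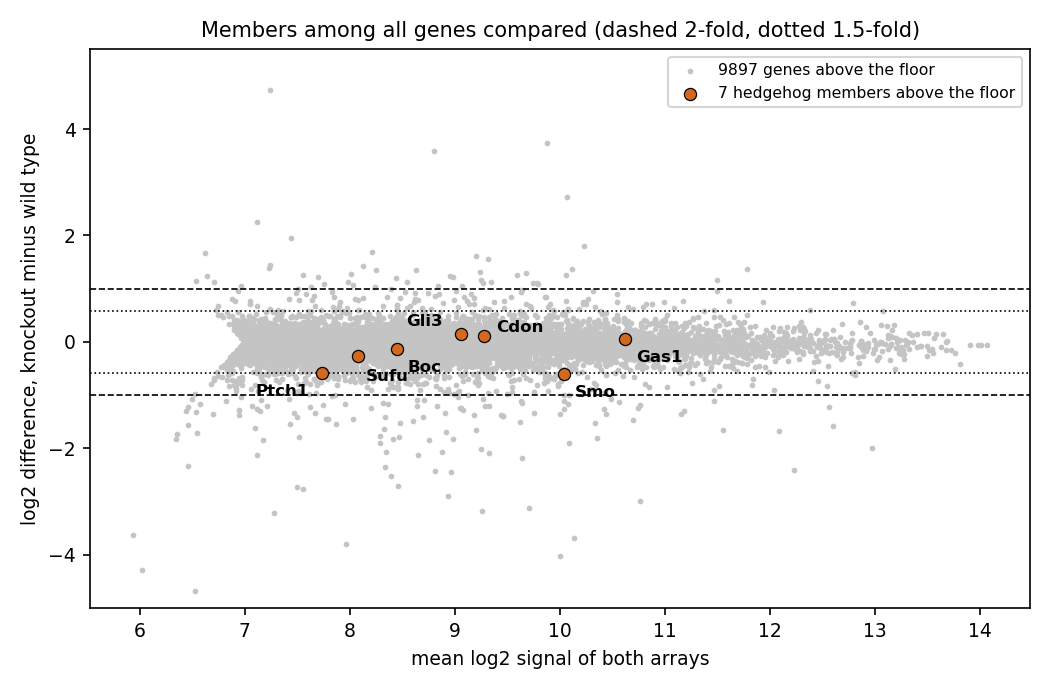
Log2 difference, knockout minus wild type (vertical axis), against the mean log2 signal of both arrays (horizontal axis) for the 9897 genes above the floor (grey) and the 7 members above it (orange), with 2-fold lines dashed and 1.5-fold lines dotted. Ptch1 (-0.59) and Smo (-0.60) sit on the lower dotted line, and the other 5 members lie between -0.26 and 0.14, inside the bulk of genes.

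Further genes of the pathway were read from 6 lists by role. Outside the members, the lists hold 70 genes, of which 65 were named here and 49 passed the floor, 19 higher and 30 lower, with a median of -0.06. The share of lower genes is close to the 59.2% of all genes compared that were lower. By the brightest probe set of each gene, none reached 2-fold, and 1 reached 1.5-fold, Shh, in the higher direction (beside 1.56% of all genes compared).

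Of the ligands, Shh (sonic hedgehog) was the 1 above the floor. Its brighter probe set read 7.55 on the wild-type array and 8.23 on the knockout array, which is 0.68 (1.60-fold higher). The other Shh probe set read 4.08 and 4.05 (-0.03), so a signal for Shh rests on 1 probe set that its partner did not share. Ihh (Indian hedgehog), the ligand of the growth plate, read 6.04 and 5.82 (-0.22), under the floor in both arrays. Dhh (desert hedgehog) was also under the floor, at 6.11 and 6.05 (-0.06). Among genes that finish or release the ligands, Hhat, which attaches palmitate to hedgehog, stood at 0.12 and Disp1, needed for its release, at -0.31 (7.30 and 6.99). In this list, 4 of 5 genes above the floor read higher, with a median of 0.12, where 59.2% of all genes compared were lower. This median came to 0.02 at a floor of 6 and when all probe sets were averaged, and stood at 0.35 at a floor of 8, where 2 genes were left.

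On the receptor side, 4 of the 6 other genes named passed the floor, 1 higher and 3 lower (beside 59.2% of all genes), with a median of -0.09. Gpc3, a glypican that competes with Ptch1 for hedgehog, read 9.12 and 9.34 (0.22). Evc2, a partner of Smo at the base of the cilium, read 8.85 and 8.61 (-0.24).

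Cytoplasmic regulators, the kinases, ubiquitin ligase parts and adaptors that set GLI processing, had 17 genes above the floor, 6 higher and 11 lower (59.2% of all genes were lower), with a median of -0.10. By the brightest probe set, none reached 1.5-fold. On that reading Gsk3a, a kinase that takes part in GLI processing, was farthest down at -0.32 (10.39 and 10.08). Csnk1d, a casein kinase, was farthest up on that reading at 0.31, but its 5 probe sets above the floor ran from -0.08 to 0.31. Probe sets above the floor ran from -0.35 to 0.75 for Fbxw11 and from -0.11 to 0.63 for Spop. The highest of each was past 1.5-fold. Those of Gsk3b ran from -0.51 to 0.13. The median of this list turned to 0.05 when all probe sets were averaged, so no common direction is given.

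Read by the brightest probe set, genes of the primary cilium, the antenna in which Smo and the GLI proteins meet, also differed little. Of 17 above the floor, 6 were higher and 11 lower (beside 59.2% of all genes), with a median of -0.04 that turned to 0.01 after median centring, to 0.03 after lowess centring and to 0.03 when all probe sets were averaged. Ift122, a part of the transport complex for return from the tip, was farthest down at -0.38, but its other probe set stood at 0.11. Kif3b, a motor subunit for transport to the tip, was farthest up at 0.26, and a second usable probe set stood at 0.29. Wdr35 stood at -0.01 by its brightest probe set, but its other probe set above the floor stood at 1.25, past 2-fold.

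Other genes known as hedgehog outputs in various tissues were split. Of 5 above the floor, 2 were higher and 3 lower (beside 59.2% of all genes), with a median of -0.08. Foxf1, a forkhead factor induced by hedgehog in mesenchyme, read 7.81 on the wild-type array and 7.32 on the knockout array (-0.49). Ccnd1 (cyclin D1) went the other way, at 11.24 and 11.71 (0.47), and its 3 probe sets were all higher, from 0.15 to 0.47. Both fell short of 1.5-fold. Ccnd2, a further cyclin of this list, stood at 0.03 by its brightest probe set. Its 7 probe sets above the floor ran from -0.06 to 0.83, the highest past 1.5-fold. The list's median turned to 0.03 with a floor of 8 and to 0.16 when all probe sets were averaged. Of the PTHrP loop that hedgehog feeds in cartilage, Pth1r, the receptor, read 8.03 and 7.90 (-0.13), and Pthlh, the ligand, was not analysed here.

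**Figure D4:**
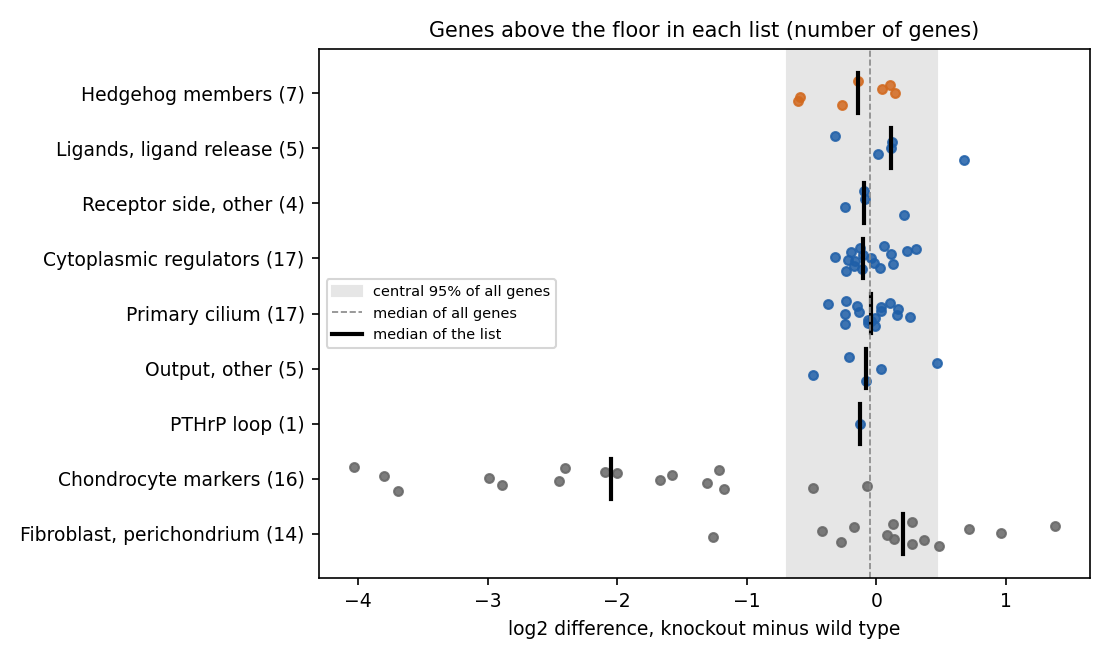
Log2 difference, knockout minus wild type (horizontal axis), of each gene above the floor in the members, in the 6 further pathway lists and in 2 marker lists, with the number of genes in brackets, the list median as a black bar and the central 95% of all genes (-0.69 to 0.47) shaded. Apart from Shh at 0.68 and Ccnd1 at 0.47, the pathway genes lie inside the shaded band, whereas the chondrocyte markers have a median of -2.05.

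The hedgehog members were set beside the chondrocyte markers of the same arrays. The member farthest from 0, Smo at -0.60, differed by less than 14 of the 16 chondrocyte markers above the floor. The 7 members spanned -0.60 to 0.14 and the 16 markers -4.03 to -0.07.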

How the data were processed

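The authors deposited log2 signals summarised by RMA (Robust Multichip Average), per the labels' design text. Affymetrix Expression Console 1.1 is named in the submitters' processing notes. The log2 scale was read from the values (3.24 to 14.2). The arrays that entered the normalization are not given in the sources used here. Ranked signals of the arrays never lie over 0.157 apart, so any shift common to most genes is lost.

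Symbols came from the platform annotation. Of 34945 probe sets with 1 symbol, 34741 matched a RefSeq gene table (GRCm38.p6) by Entrez identifier and none changed symbol. The 932 with several symbols name no gene here, and 64 control probe sets were left out. A gene was read by its brightest probe set (highest mean signal), and compared if the higher value reached 7. Differences are knockout minus wild type, counted at 2-fold and 1.5-fold. Each group has 1 array, so there is no test and their number limits the precision. Counting was tested on simulated data.

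The members and lists were chosen with earlier results of these data known. All members were named. From each further pathway list the text names genes at 0.5 or more from 0, the 2 farthest and every ligand. From marker lists it names a fixed few plus up to 2 of the farthest. Ptprc, Sp7, Hhat, Wdr35, Fbxw11, Spop, Gsk3b, Ccnd2 and the sex-linked genes were added after their values were seen. No genes of like pattern are named, since 2 arrays give no pattern. A planned comparison of protein sequences was not run. Computation used Python 3.11.15, pandas 2.3.3, numpy 2.4.6 and statsmodels 0.14.6.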

Additional observations from a re-analysis of the deposited data

How the results depend on the processing

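Ptch1 stayed lower in 9 other settings (-0.59 to -0.53) and Smo in 10 (-0.60 to -0.25). For Ptch1 and Sufu, every such setting reread or rescaled the same 1 probe set above the floor. With the mean of all probe sets these 2 genes did not pass the floor. Their settings therefore give no separate support for a direction. Gli3 and Cdon stayed higher and Sufu and Boc lower in each setting that gave a value, and Gas1 turned to -0.01 with the mean of all probe sets. Boc moved from -0.14 to -0.77 with probe sets of 1 transcript and to -0.46 with the mean of probe sets above the floor, a setting chosen after seeing the data. The 2 members at least 1.5-fold lower became 0 with median centring, quantile normalization, lowess centring and the mean of all probe sets, and 1 with the mean of probe sets above the floor. With probe sets of 1 transcript the count stayed at 2, but the genes changed. They were then Ptch1 and Boc, and Smo at -0.45 fell short. In the centred settings the loss comes from values that lay just past the line. The count of members at least 2-fold lower, 0, became 2 at a 1.5-fold threshold. The output median of -0.59 became -0.15 with a floor of 6 and -0.13 with no floor, since Hhip and then Gli1 entered. The GLI motif count went from 0 to 1 member window with the core. The median of all members turned to 0.01 with the mean of all probe sets, where 4 members passed the floor. Values moved by less than 0.273, the spread between probe sets of a gene, were taken as the same, because there are no replicates. Signal under the floor limits Gli1, Gli2, Hhip and Ihh. No paired analysis was possible because each group has 1 array.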
